A study of Mus musculus with 15 samples.

Results

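Trp53, the gene of the tumour suppressor p53, and 9 genes that p53 is known to switch on were followed through cultured mouse hepatocytes on Agilent 1-colour arrays. The 10 genes, Trp53, Mdm2, Ccng1, Bax, Bbc3, Pmaip1, Perp, Sesn2, Trp53inp1 and Gadd45a, were found by the gene name of their probes, and they were 10 of 27343 named genes, measured by 15 of 41174 probes. The series compared expandable hepatocytes after 21 days in differentiation medium (mHep, 7 arrays) with the same cells in expansion medium (eHep, 7 arrays) and with freshly isolated hepatocytes from C57B6 mice, obtained by collagenase perfusion (primary, 1 array). The label mHep was not spelled out and was taken to stand for the differentiation medium. Both cultures came from the same 3 mice: C57B6-No1 and 129S1-No1, each with 3 mHep and 3 eHep arrays, and 129S1-No2, with 1 mHep and 1 eHep array. No transgene, deletion or drug was named for any group. For 129S1-No2 the mHep sample is called eHep in one of its labels, and its title was followed. With 1 mouse per strain at 3 arrays a medium, strain and animal cannot be told apart. Whether the 3 arrays were separate cultures was not stated, so p-values over arrays measure only the spread between those arrays.

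p53 is a transcription factor that cells hold at a low level until DNA damage, oncogene activity or other stress stabilises it. It then binds response elements, each built of paired short motifs, and switches on genes that arrest the cell cycle, repair DNA, adjust metabolism or start apoptosis, among them Mdm2, whose protein marks p53 for destruction and so closes a feedback loop. Since p53 is controlled largely at the level of its protein, the level of Trp53 mRNA and the levels of its target mRNAs need not move together.

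The promoters are shown first, as 5 of the genes described carry a p53 motif close to the start. Of the 10 genes, 4 differed between mice in their response to the medium and 2 were called against primary cells, counts set against all genes below. The part of the motifs in these differences was not tested. The 250 bases upstream of the start, from RefSeq on GRCm38.p6, are described here for 7 of the 10 genes, in 9 windows because Bbc3 has 3 starts. The windows of Pmaip1, Perp and Trp53inp1 are not described here. The p53 recognition motif is a palindromic consensus of 10 bases and was searched on both strands. It was present in 5 of the 9 windows described, those of Mdm2, Ccng1, Bax, Gadd45a and Trp53. Of all 32851 windows of this length, 7.13% held it. Capitals mark the motif in each sequence, read 5′ to 3′ on the strand of the gene.
Mdm2 (chr10:117710759-117711008, minus strand): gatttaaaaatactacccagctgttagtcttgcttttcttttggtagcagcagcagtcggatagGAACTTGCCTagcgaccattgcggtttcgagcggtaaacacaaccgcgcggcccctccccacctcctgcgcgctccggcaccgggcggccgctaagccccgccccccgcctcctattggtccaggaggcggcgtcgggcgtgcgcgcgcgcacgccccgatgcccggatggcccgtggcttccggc
Ccng1 (chr11:40755287-40755536, minus strand): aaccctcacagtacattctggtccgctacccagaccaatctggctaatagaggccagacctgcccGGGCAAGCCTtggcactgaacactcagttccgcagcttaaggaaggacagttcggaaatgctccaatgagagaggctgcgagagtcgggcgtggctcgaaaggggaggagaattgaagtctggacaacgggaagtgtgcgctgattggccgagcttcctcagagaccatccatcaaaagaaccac
Bax (chr7:45466899-45467148, minus strand): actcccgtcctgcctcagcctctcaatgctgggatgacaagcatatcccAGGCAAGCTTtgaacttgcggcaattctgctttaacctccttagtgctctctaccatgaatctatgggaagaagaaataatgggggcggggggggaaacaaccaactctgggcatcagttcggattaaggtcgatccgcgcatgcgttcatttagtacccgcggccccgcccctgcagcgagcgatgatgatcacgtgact
Gadd45a (chr6:67037408-67037657, minus strand): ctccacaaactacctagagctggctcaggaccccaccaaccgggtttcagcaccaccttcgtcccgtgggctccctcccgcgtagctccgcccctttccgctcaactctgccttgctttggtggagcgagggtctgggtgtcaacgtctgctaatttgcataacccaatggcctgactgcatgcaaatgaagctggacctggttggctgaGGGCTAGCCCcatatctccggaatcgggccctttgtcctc
Trp53 (chr11:69580109-69580358, plus strand): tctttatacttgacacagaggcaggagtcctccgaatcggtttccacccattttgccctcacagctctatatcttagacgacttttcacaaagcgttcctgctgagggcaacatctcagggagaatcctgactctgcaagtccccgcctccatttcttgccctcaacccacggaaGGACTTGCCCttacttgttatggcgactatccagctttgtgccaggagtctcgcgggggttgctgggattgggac

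Pairs of motifs were also scored by how many of their 20 bases fit the consensus, with up to 13 bases between its parts and with the central C and G of each part required. The best pair in the Ccng1 window, AGACCTGCCC followed directly by GGGCAAGCCT, fitted at 19 of 20 bases, a score that 0.505% of all windows reached. The best pairs of Bax and Gadd45a fitted at 18 bases, which 3.34% of all windows reached. Those of Trp53 and of the first Bbc3 window (CTGCAAGCCC with CGACTTGTCC) fitted at 17, which 13% of all windows reached, and so did that of the second Bbc3 window. The best pairs fitted at 16 bases for Mdm2, 14 for Sesn2 and 13 for the third Bbc3 window. These matches describe letters in the window and are not measured binding.

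The arrays read each gene through probes of 60 bases, and those of Trp53 itself and of 3 of the 4 genes that differed between mice are given here with their mm9 positions from the files. The annotation of that build was not used here, so exons are not stated. The Bax probe spans 156 bases of genome, more than its own length.
Mdm2 (chr10:117129725-117129784, minus strand): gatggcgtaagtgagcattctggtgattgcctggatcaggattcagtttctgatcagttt
Ccng1 (chr11:40564413-40564472, minus strand): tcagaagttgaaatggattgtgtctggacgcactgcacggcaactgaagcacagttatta
Bax (chr7:52721469-52721624, minus strand): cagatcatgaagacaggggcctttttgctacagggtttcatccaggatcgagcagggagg
Trp53 (chr11:69403134-69403193, plus strand): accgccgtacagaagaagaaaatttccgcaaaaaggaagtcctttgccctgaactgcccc

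Levels below are log2 signals minus the log2 of the array's own 75th percentile, so that 0 is the brightness of a probe at that percentile, and a gene with several probes is represented by its brightest one. All 10 genes were well above background on all 14 cultured arrays, and 9 were on the primary array, where Pmaip1 was not. On the cultured arrays 48.8% to 61.9% of probes were well above background, against 36.3% on the dimmer primary array. The 10 hepatocyte markers had a summed level of 8.1 to 10.9 in mHep, 0.628 to 3.11 in eHep and 13.5 in primary cells, and Ttr, Cps1 and Cyp3a11 were well above background on no eHep array. The 7 biliary markers summed to 7.24 to 9.74 in mHep, 8.08 to 9.28 in eHep and 2.90 in primary cells, where Krt19, Krt7, Epcam and Cftr were not well above background. The 8 macrophage markers summed to −1.55 to 0.384 in mHep, −2.49 to 1.94 in eHep and 3.34 in primary cells, and the 8 endothelial markers to −2.86 to −0.958 in mHep, −3.20 to −0.855 in eHep and 3.98 in primary cells. The 9 stellate and mesenchymal markers summed to 5.16 to 6.76 in mHep, 6.42 to 7.91 in eHep and 4.24 in primary cells, with Des, Pdgfrb and Lum well above background on no array of any group. The part of these differences in the results below was not tested. In such bulk samples fewer cells of a type and less RNA per cell cannot be told apart.

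Trp53 was lower in mHep than in eHep in each of the 3 mice, although the difference did not pass the test across genes. Its mHep level was 0.52 in C57B6-No1, 0.18 in 129S1-No1 and 0.31 in 129S1-No2, against eHep levels of 2.16, 2.09 and 0.94 in the same mice, and the primary array stood at 0.23. The mouse means of the media did not overlap, and the mHep means lay around the primary value. Over mice the level averaged 0.34 ± 0.18 in mHep and 1.73 ± 0.69 in eHep (SD, n = 3 each), a log2 difference of −1.39 ± 0.43 (SE; limma adjusted p = 0.216), which is 0.382 times the eHep level. Within the mice with 3 arrays per medium Trp53 fell by 1.63 ± 0.36 in C57B6-No1 (limma adjusted p = 0.00698) and by 1.92 ± 0.36 in 129S1-No1 (limma adjusted p = 0.00207). The media of 129S1-No1 lay on different slides. The second Trp53 probe, at chr11:69393959-69394017 upstream of the one shown, did not follow it: its difference was −0.21 ± 0.38 over mice (limma adjusted p = 0.856), and neither mouse passed the test with it. The difference of Trp53 between media thus rests on 1 of its 2 probes.

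The negative regulators of p53 among its targets came next. Mdm2, the ubiquitin ligase of the feedback loop, stood at 1.73 in C57B6-No1, 2.17 in 129S1-No1 and 0.48 in 129S1-No2 in mHep, against 3.52, 2.12 and 1.79 in eHep, and at −1.03 on the primary array. Its mHep and eHep levels were nearly equal in 129S1-No1, and Mdm2 was lower in mHep in the other mice, and every cultured array was above the primary one. Over mice the difference was −1.02 ± 0.49 (SE; limma adjusted p = 0.401). Ccng1, which encodes cyclin G1, a p53-induced protein that recruits a phosphatase to Mdm2, stood at 3.29, 1.79 and 2.24 in mHep, against 4.21, 4.01 and 3.01 in eHep, and at 2.07 in primary cells. It was lower in mHep in all 3 mice, with overlap between mice, with a log2 difference of −1.31 ± 0.45 (SE; limma adjusted p = 0.261). The second Ccng1 probe, at chr11:40562427-40562486, downstream of the one shown, gave −0.75 ± 0.39 (limma adjusted p = 0.435).

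None of the targets with a role in cell death passed the test between the media. Bax, a pore former of the mitochondrial membrane, stood at 2.80, 1.47 and 1.95 in mHep, against 3.48, 3.75 and 1.60 in eHep, and at 1.91 in primary cells. It was lower in mHep in C57B6-No1 and 129S1-No1 and higher in 129S1-No2, where the eHep array was the lowest of its group, and the difference over mice was −0.87 ± 0.57 (SE; limma adjusted p = 0.543). Bbc3, which encodes PUMA, a BH3-only protein that frees Bax from its inhibitors, stood at 3.04, 2.72 and 1.73 in mHep, against 3.42, 3.66 and 1.91 in eHep, and at 4.12 in primary cells. The mice ranged as widely as the media, and the primary array was above every cultured one. The difference between media was −0.50 ± 0.39 (SE; limma adjusted p = 0.619).

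Pmaip1, which encodes NOXA, another BH3-only protein, went the other way. It stood at 3.93, 3.41 and 4.17 in mHep, against 3.20, 2.41 and 3.27 in eHep, and at −4.19, not well above background, on the primary array. The mHep means were above the eHep means without overlap, by 0.73 in C57B6-No1, 1.00 in 129S1-No1 and 0.90 in 129S1-No2. The fitted difference of 0.88 ± 0.37 did not pass (SE; limma adjusted p = 0.345). Perp, a desmosome-associated membrane protein that takes part in p53-dependent apoptosis, stood at 4.98, 5.08 and 5.11 in mHep, against 5.90, 5.43 and 3.35 in eHep, and at 5.14 in primary cells. Its mHep means lay close together and near the primary value, while the eHep level of 129S1-No2 lay far below those of the other mice. The difference of 0.16 ± 0.60 (SE; limma adjusted p = 0.935) joined changes of opposite sign in different mice.

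Sesn2, Trp53inp1 and Gadd45a link p53 to metabolism, autophagy and repair, and none of them passed between the media. Sesn2, a stress sensor that restrains mTORC1, stood at 3.83, 3.04 and 3.85 in mHep, against 4.95, 4.36 and 3.88 in eHep, and at 2.17 in primary cells. It was lower in mHep in C57B6-No1 and 129S1-No1 and nearly equal in 129S1-No2. The difference was −0.82 ± 0.44 (SE; limma adjusted p = 0.447) and was −0.65 ± 0.41 with the second probe (limma adjusted p = 0.528). Trp53inp1, a nuclear stress protein that also takes part in autophagy, stood at 2.63, 3.50 and 3.39 in mHep, against 2.05, 0.81 and 3.63 in eHep, and at 0.05 in primary cells. In C57B6-No1 single arrays spread widely, with 1.01, 3.26 and 3.62 in mHep and 1.67, 0.98 and 3.50 in eHep. The difference over mice was 1.01 ± 0.62 (SE; limma adjusted p = 0.514), and the second probe gave 1.09 ± 0.69 (limma adjusted p = 0.525). Gadd45a, a growth arrest and DNA repair protein, stood at 3.26, 3.15 and 2.87 in mHep, against 3.81, 2.57 and 3.22 in eHep, and at −0.21 in primary cells. The media overlapped, with a difference of −0.11 ± 0.42 (SE; limma adjusted p = 0.938), and every cultured mean was far above the primary array.

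**Figure D1:**
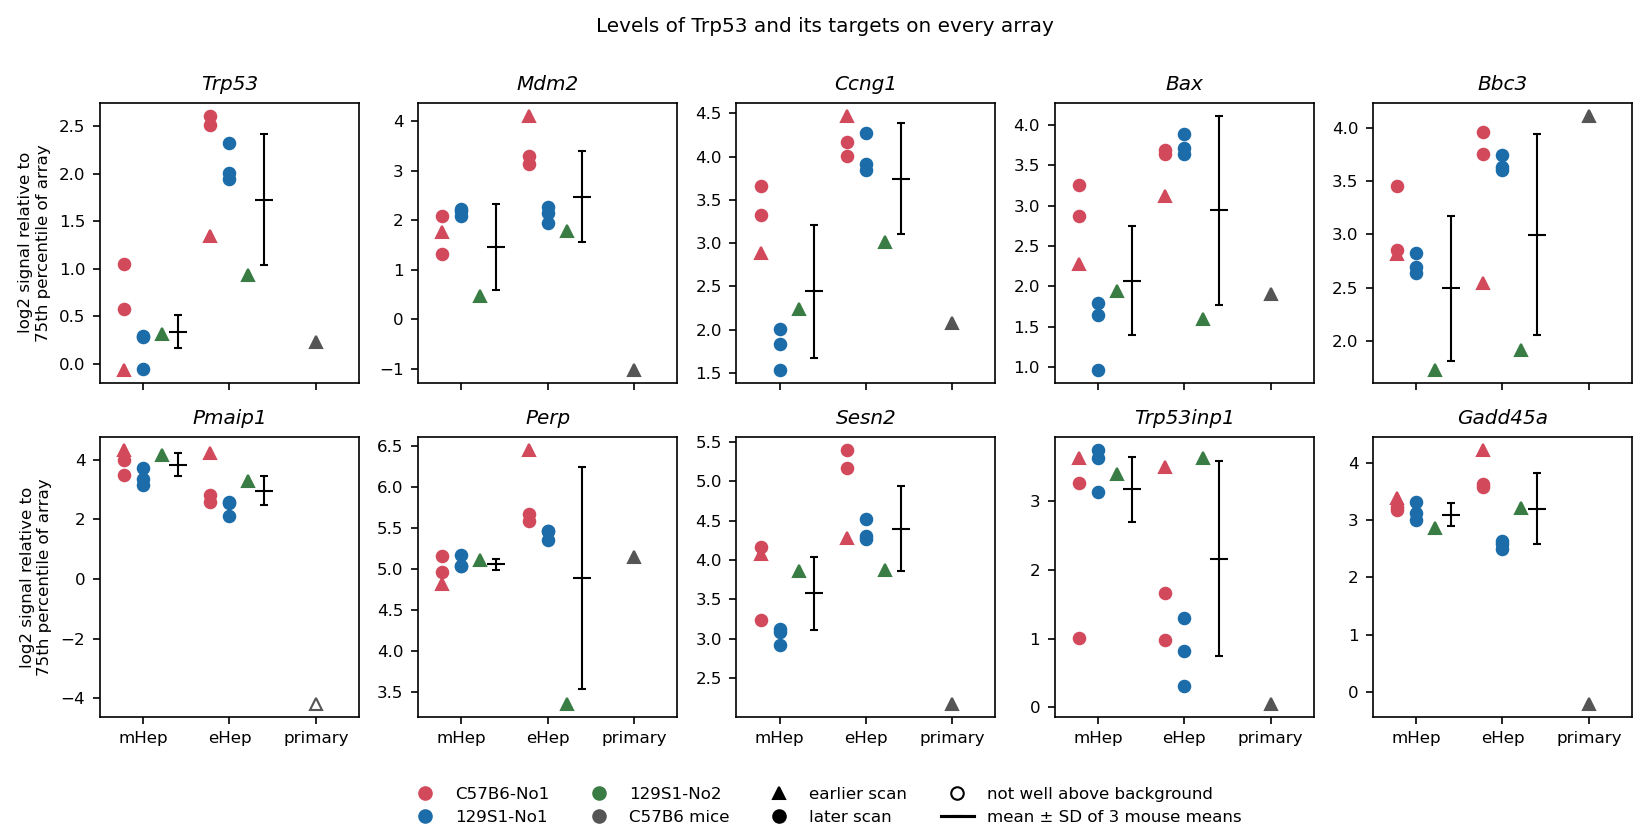
Level of each gene on every array (y axis, log2 signal minus the array's 75th percentile) in mHep, eHep and primary cells (x axis), coloured by mouse, with triangles for the earlier scan and circles for the later one, and mean ± SD of 3 mouse means in black. Pmaip1 is the only one of the 10 that was not well above background on the primary array (open symbol at −4.19), and eHep arrays of Trp53 sit mostly above the mHep arrays.

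**Figure D2:**
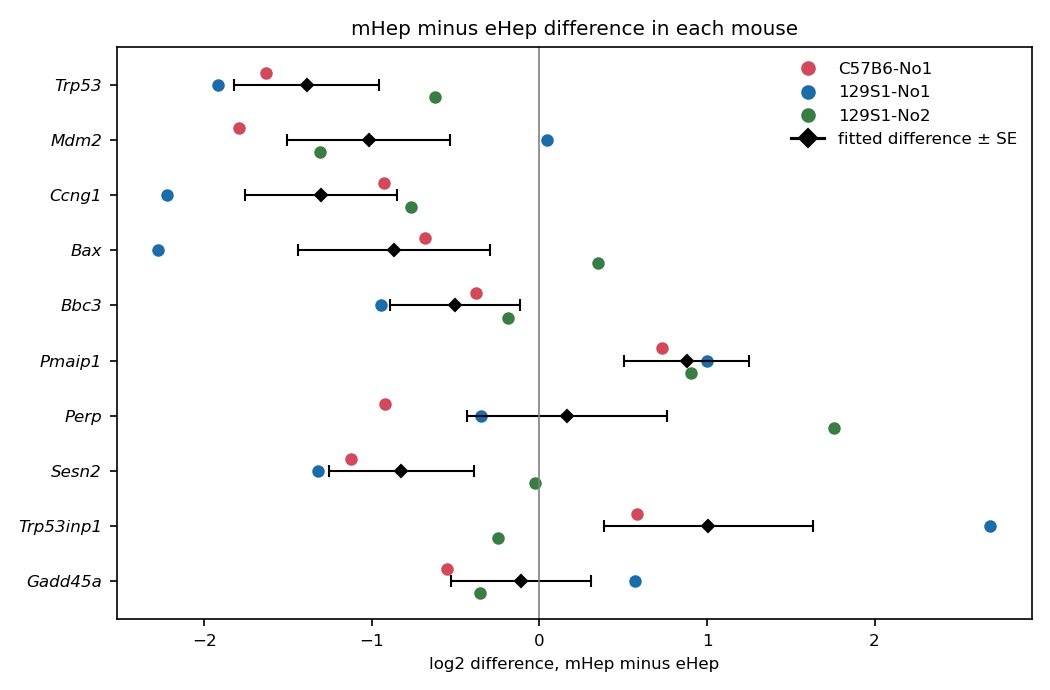
Log2 difference mHep minus eHep (x axis) of each gene (y axis) in the 3 mice (coloured points) and as fitted over mice with its SE (black diamond). Trp53, Ccng1, Bbc3 and Sesn2 were lower in mHep in all 3 mice and Pmaip1 was higher in all 3, while Mdm2, Bax, Perp, Trp53inp1 and Gadd45a had mice on both sides of 0.

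The comparison of the media over mouse means asked whether p53 and its targets change with the medium beyond the spread between mice. None of the 10 genes passed limma's adjusted threshold of 0.05, where 1.84% of 14597 genes did, 1.38% of all genes being called higher and 0.452% lower in mHep. At an unadjusted p under 0.05 Trp53 and Ccng1, both lower in mHep, were counted, 2 of 10 genes where 7.76% of all genes were counted as lower and 7.19% as higher, 14.9% in all. The median difference of the 10 genes was −0.66, against −0.10 over all genes tested, and 7 of the 10 were below 0. With the 14 arrays taken as samples, 6 of the 10 passed where 34.4% of all genes did: Trp53, Mdm2, Ccng1, Bax and Sesn2 were lower, where 21.2% of all genes were called lower, and Pmaip1 was higher, where 13.3% were. Arrays of 1 mouse are not separate animals, so that count reflects the spread between arrays as well as mice. Of the genes called over mouse means, 75.4% were higher in mHep, and this share was 91.4% when arrays were scaled on probes detected everywhere.

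The mice with 3 arrays per medium differed in how some of these genes responded. In C57B6-No1, 5 of 10 genes fell in mHep, Trp53, Mdm2, Ccng1, Perp and Sesn2, where 26.7% of all genes changed, 12.3% rising and 14.4% falling. In 129S1-No1, 7 of 10 changed where 46.3% of all genes did: Trp53, Ccng1, Bax, Bbc3 and Sesn2 fell, where 28.6% of all genes fell, and Gadd45a and Trp53inp1 rose, where 17.7% rose. The share in 129S1-No1 must be read against that high background. All eHep arrays of 129S1-No1 lay on slide 3 and all its mHep arrays on slide 4. Medium and slide therefore cannot be told apart within that mouse. The second Ccng1 probe passed in neither mouse, with −0.54 ± 0.58 in C57B6-No1 (limma adjusted p = 0.556) and −0.55 ± 0.58 in 129S1-No1 (limma adjusted p = 0.436).

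The difference of the changes, C57B6-No1 minus 129S1-No1, was itself tested, and 4 of 10 genes passed where 16.9% of all genes did: 2 with a higher value in C57B6-No1, where 10.7% of all genes were called so, and 2 with a lower one, where 6.17% were. Mdm2 changed by −1.79 ± 0.28 in C57B6-No1 and by 0.05 ± 0.28 in 129S1-No1, a difference of −1.84 ± 0.40 (SE; limma adjusted p = 0.0117). Single arrays of C57B6-No1 read 1.32, 2.09 and 1.77 in mHep, against 3.30, 3.14 and 4.12 in eHep, and those of 129S1-No1 read 2.08, 2.24 and 2.19 in mHep, against 2.15, 2.28 and 1.94 in eHep. The media were apart without overlap in C57B6-No1 and lay on each other in 129S1-No1. The second Mdm2 probe, whose sequence is shown above, gave −1.75 ± 0.39 (limma adjusted p = 0.013).

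Bax went the other way, falling in 129S1-No1 by 2.28 ± 0.30, against −0.68 ± 0.30 in C57B6-No1, a difference of 1.59 ± 0.43 (SE; limma adjusted p = 0.029). Ccng1 fell by 0.93 ± 0.25 in C57B6-No1 and by 2.22 ± 0.25 in 129S1-No1, a difference of 1.30 ± 0.35 (SE; limma adjusted p = 0.0306). The second Ccng1 probe showed no such difference, with 0.01 ± 0.82 (limma adjusted p = 0.994). Gadd45a changed by −0.55 ± 0.21 in C57B6-No1 and by 0.57 ± 0.21 in 129S1-No1, a difference of −1.12 ± 0.30 (SE; limma adjusted p = 0.0279). The remaining 6 genes did not pass, and Trp53 differed by 0.28 ± 0.51 (SE; limma adjusted p = 0.705).

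These calls depended on single arrays to different degrees. Mdm2 remained past the threshold whichever of the 12 arrays was left out. Without mHep replicate 1-1 Mdm2 and Bax passed, 2 of 10 genes where 10.5% of all genes did. Without any other array of 129S1-No1, or without mHep replicate 2-2, only Mdm2 passed, 1 of 10 where 9.37% to 13.4% of all genes did. Ccng1 was lost without eHep replicate 2-1 or 2-2, where 12.9% and 15.6% of all genes passed, and Bax was lost without eHep replicate 2-3, where 15.4% did. All 4 passed without mHep replicate 2-1, where 14.8% of all genes did, and without mHep replicate 2-3, where 33.2% did. In the later scan alone, which drops replicate 3 of C57B6-No1 in both media and was chosen after the values were seen, the same 4 genes passed where 37.6% of all genes did, with −1.56 ± 0.33 for Mdm2. Scaling and the probe rule also changed the calls. Ccng1 was lost and 3 of 10 remained with quantile scaling, detected-probe scaling, the authors' deposited value table and the mean of probes, where 15.3% to 18.9% of all genes passed, and Gadd45a was lost with median scaling, where 15.6% did. With no filter only Mdm2 passed, where 8.8% of all genes did. In all, the call of Ccng1 was lost in 16 of 24 settings, that of Gadd45a in 11, that of Bax in 10 and that of Mdm2 in 1. With slide as a term only Mdm2 passed, where 8.28% of all genes did, and the media of 129S1-No1 lay on different slides. With the normexp background correction none passed, where 4.45% of all genes did, and Mdm2 had −1.60 ± 0.49 (limma adjusted p = 0.0885). Mdm2, Bax, Ccng1 and Gadd45a kept the sign of their difference in each of these settings.

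**Figure D3:**
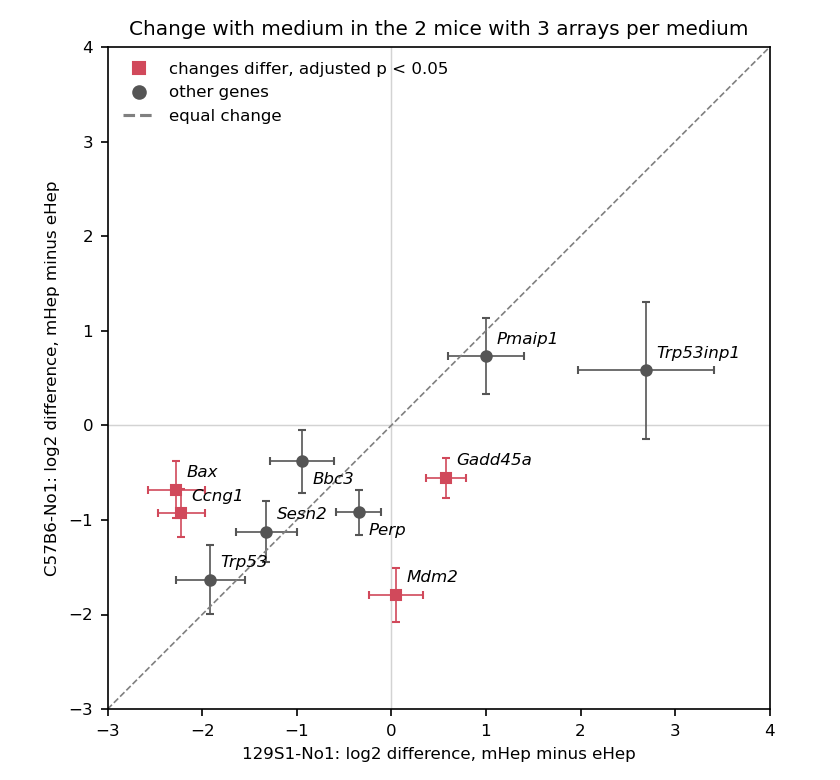
Log2 difference mHep minus eHep with its SE in C57B6-No1 (y axis) against that in 129S1-No1 (x axis) for the 10 genes, with the line of equal change dashed. Red squares are the 4 genes whose changes differed between these mice: Bax and Ccng1 above the line, Mdm2 and Gadd45a below it.

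Against primary hepatocytes, 2 of the 10 genes were called higher in mHep, Gadd45a and Pmaip1, where 9.98% of 15168 genes were called, 4.01% higher and 5.97% lower. The same 2 were called higher in eHep, where 15% of all genes were called, 5.62% higher and 9.41% lower. Both comparisons share the 1 primary array, which was assumed to vary as the cultured mouse means do, and the call also required a log2 difference of at least 1. Pmaip1 was the furthest from primary cells: since its primary reading was not well above background, mHep was at least 62-fold higher (measured means 3.84 in mHep and −4.19 in primary cells; limma adjusted p = 0.00232). eHep was at least 33.7-fold higher (measured means 2.96 in eHep and −4.19 in primary cells; limma adjusted p = 0.00201). These bounds set the mean of 3 mice against the lowest signal that counted as well above background on the primary array. Gadd45a was higher by 3.30 ± 0.63 in mHep (SE; limma adjusted p = 0.0242) and by 3.41 ± 0.63 in eHep (SE; limma adjusted p = 0.0161).

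Mdm2 was higher than on the primary array by 2.49 ± 0.93 in mHep (SE; limma adjusted p = 0.146) and by 3.50 ± 0.93 in eHep (SE; limma adjusted p = 0.0511). The eHep value passed the threshold in 9 of 14 settings: with quantile, median or detected-probe scaling, the authors' deposited value table, dim readings raised to the background limit, no filter, a strict filter, without 129S1-No2 and in C57B6-No1 alone, with limma adjusted p from 0.000733 to 0.0482. Sesn2 was 1.41 ± 0.66 above primary in mHep (limma adjusted p = 0.218) and 2.23 ± 0.66 above it in eHep (limma adjusted p = 0.0682). Trp53inp1 was 3.12 ± 1.06 above primary in mHep (limma adjusted p = 0.116) and 2.12 ± 1.06 above it in eHep (limma adjusted p = 0.226). Neither medium separated Trp53, Ccng1, Bax, Bbc3 or Perp from the primary array at the threshold, with adjusted p from 0.278 to 0.964 in mHep and from 0.176 to 0.891 in eHep. The second Ccng1 probe was not well above background on the primary array. Its reading there of −2.0 lay above the limit of −2.117 used for the Pmaip1 bounds, so that reading itself was used. By that probe Ccng1 was 29.6-fold higher in mHep (measured means 2.88 in mHep and −2.0 in primary cells, limma adjusted p = 0.00944). It was 49.9-fold higher in eHep (measured means 3.64 in eHep and −2.0 in primary cells, limma adjusted p = 0.00526). Both folds rest on a primary reading that was not well above background. The probes of Ccng1 thus disagreed on this comparison.

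Without C57B6-No1, 1 of the 10 genes, Pmaip1, was called in each comparison, where 1.84% of all genes were called in mHep and 4.8% in eHep, and Gadd45a had adjusted p = 0.147 in mHep and 0.117 in eHep by limma. The primary array was read in the earlier scan. Against the arrays of that scan alone, a comparison chosen after the values were seen, 3 of the 10 genes were called in mHep, where 26.7% of all genes were, and 4 in eHep, where 36.1% were, with Trp53inp1 added in both and Sesn2 in eHep. The scaling of the dim primary array moved all genes together: the median difference over all genes was −0.34 in mHep and −0.19 in eHep, and ranged from −0.71 to 0.25 in mHep and from −0.54 to 0.33 in eHep under other scalings and treatments of dim readings. Of the called genes, 40.2% were higher in mHep and 37.4% in eHep, against 61.4% in mHep and 56.8% in eHep with the authors' deposited value table, and 28% in mHep and 27.7% in eHep with dim readings raised to the background limit. Pmaip1 and Gadd45a were called higher in both media under each scaling and each treatment of dim readings tried.

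**Figure D4:**
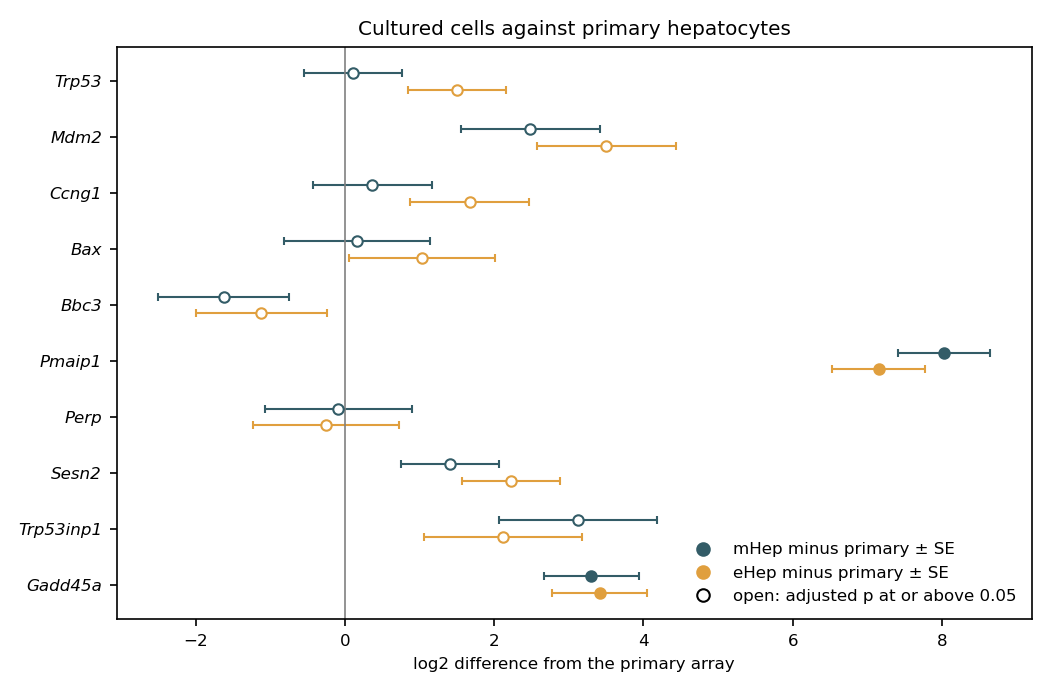
Log2 difference from the primary array (x axis) with its SE for each gene (y axis), mHep in blue-green and eHep in orange, filled where the adjusted p was under 0.05. Pmaip1 and Gadd45a are filled in both; the plotted Pmaip1 values of 8.03 and 7.15 rest on a primary reading that was not well above background.

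The wider p53 pathway was described from lists written with earlier results of these data known. Of 40 other p53 targets on the array, 2 were called lower in mHep, where 0.452% of all genes were, and none higher, where 1.38% were. Their median difference was −0.63, against −0.10 over all genes, and 31 of the 40 were below 0. Thbs1, an anti-angiogenic matrix protein, was well above background on 2 of 7 mHep arrays, so that the size of its fall is not given here. It was called with limma adjusted p = 0.0437, and the call was lost in 7 of 30 settings. Gtse1, a protein of G2 cells that holds p53 in the cytoplasm, averaged −2.41 ± 1.01 in mHep and 0.59 ± 0.82 in eHep (SD, n = 3 each; difference −3.0 ± 0.40; limma adjusted p = 0.0296). Its call was lost in 4 of 30 settings. Cdkn1a, which encodes p21, the cell cycle inhibitor and best known p53 target, stood at 4.49 in C57B6-No1, 3.03 in 129S1-No1 and 4.24 in 129S1-No2 in mHep, against 5.69, 4.70 and 3.36 in eHep, and at 0.82 in primary cells. It was lower in mHep in the mice with 3 arrays per medium and higher in 129S1-No2, and the difference was −0.66 ± 0.58 (SE; limma adjusted p = 0.668). Sesn1, the sestrin relative of Sesn2, was 1.05 ± 0.40 higher in mHep (SE; limma adjusted p = 0.306).

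Genes known to be repressed through p53, p21 and the DREAM complex act mostly in cell division. All 20 had a difference below 0, with a median of −2.88 against −0.10 over all genes. Of the 20, 4 were called lower, where 0.452% of all genes were. Ccnb1, the mitotic cyclin B1, averaged −3.01 ± 1.33 in mHep and 1.17 ± 0.84 in eHep (SD, n = 3 each; difference −4.19 ± 0.53; limma adjusted p = 0.0263). Cenpa, the centromeric histone, averaged −2.76 ± 0.54 in mHep and 0.76 ± 0.67 in eHep (SD, n = 3 each; difference −3.52 ± 0.51; limma adjusted p = 0.0351). Aurka, a mitotic kinase, averaged −0.34 ± 0.66 in mHep and 2.86 ± 0.99 in eHep (SD, n = 3 each; difference −3.20 ± 0.50; limma adjusted p = 0.0434). Cdc25c, the phosphatase that opens mitosis, was the 4th of these calls and was well above background on 1 of 7 mHep and 5 of 7 eHep arrays, so that the size of its fall is not given here (limma adjusted p = 0.0472). That call was lost in 9 of 26 settings. The call of Aurka was lost in 6 of 30 settings, that of Cenpa in 5 and that of Ccnb1 in 4. Between C57B6-No1 and 129S1-No1, 12 of the 20 passed the test of the difference, each with the smaller fall in C57B6-No1, a direction in which 10.7% of all genes were called. Mcm5, a subunit of the replicative helicase, changed by −0.26 in C57B6-No1 and −4.49 in 129S1-No1 (difference 4.23 ± 0.93; limma adjusted p = 0.0127).

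**Figure D5:**
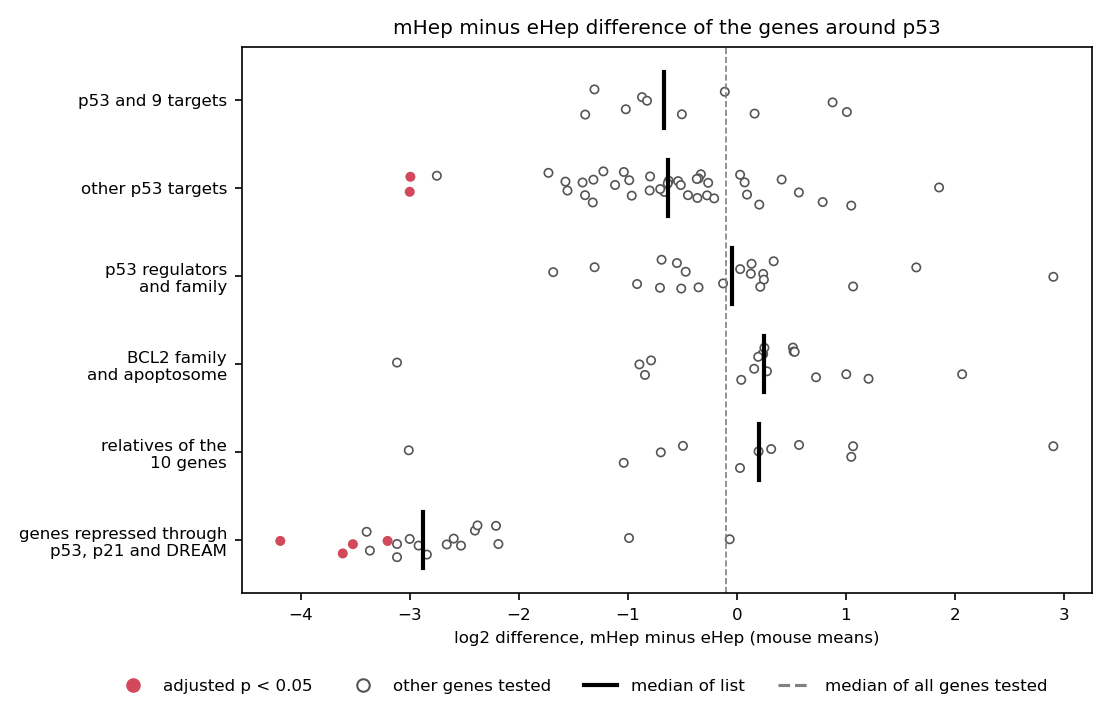
Log2 difference mHep minus eHep over mouse means (x axis) for the genes tested in each list (y axis), filled red where the adjusted p was under 0.05, with the median of each list as a black bar and that of all genes as a dashed line. The list repressed through p53, p21 and DREAM has its median at −2.88, while the 10 genes of p53 and its targets have theirs at −0.66 and the regulators theirs at −0.05.

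Among 20 tested regulators and relatives of p53 none passed between the media, where 1.84% of all genes did, and the median was −0.05. Mdm4, the partner of Mdm2 that masks the p53 activation domain, was the one with the largest difference, and it was measured unequally by its 4 probes. Its brightest probe stood at 2.85 in C57B6-No1, 3.78 in 129S1-No1 and 0.36 in 129S1-No2 in mHep, against −2.03, 1.83 and −1.52 in eHep (difference 2.90 ± 0.68, SE; limma adjusted p = 0.117). The difference between mice was 2.94 ± 0.82 with that probe (limma adjusted p = 0.034) and −0.86 ± 0.43 with the mean of all 4 (limma adjusted p = 0.186). Cdkn2a, the locus of p16 and of p19Arf, which blocks Mdm2, stood at 1.00 in C57B6-No1 and 0.95 in 129S1-No1 in mHep, against 1.87 and 3.03 in eHep, and at −6.92 in mHep and −7.13 in eHep of 129S1-No2. Both arrays of 129S1-No2 and the primary array, at −4.14, were not well above background. The same mouse had the lowest eHep values of Trp53, Mdm2, Ccng1, Bax, Bbc3, Perp, Sesn2 and Cdkn1a among the 3 mice, a description of 1 array whose part in the results was not tested.

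Between the mice the regulators that passed were Mdm4 and Chek2, a DNA damage kinase, with a higher value of the difference (2.94 and 0.93), and Hipk2, a kinase that phosphorylates p53, and Sirt1, a deacetylase of p53, with a lower one (−2.21 and −2.13). These were 4 of 20 genes, where 16.9% of all genes passed, a share near that background. Other p53 targets gave 6 of 40 higher, where 10.7% of all genes were called higher, and 1 lower, where 6.17% were, which is also near the background. Dram1, a lysosomal autophagy protein, changed by 1.23 in C57B6-No1 and by −1.52 in 129S1-No1, and Btg2, an antiproliferative protein, by −0.12 and −2.39 in these mice. Slc19a2, a thiamine carrier, was the 1 lower, with a change of −1.5 in C57B6-No1 and −0.29 in 129S1-No1.

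Of 18 tested genes of the BCL2 family and apoptosome, the cell death machinery around Bax and Bbc3, none passed between the media, where 1.84% of all genes did. Their median difference was 0.25, against −0.10 over all genes, and 14 of 18 were above 0. The survival genes Bcl2l1 and Mcl1 differed by 0.23 ± 0.50 (SE; limma adjusted p = 0.876) and 0.16 ± 0.38 (SE; limma adjusted p = 0.889). Between the mice 4 of 18 genes passed, all with the higher value in C57B6-No1, where 10.7% of all genes were called so: the BH3-only genes Bmf and Bid, the Bax relative Bok, and Birc5, which encodes survivin and is also in the DREAM list. Relatives of the 10 genes gave no call among 11 tested between the media, where 1.84% of all genes were called. Ccng2 differed by 0.57 ± 0.39 (limma adjusted p = 0.56), Gadd45b by 0.03 ± 0.64 (limma adjusted p = 0.993) and Gadd45g by −0.49 ± 0.39 (limma adjusted p = 0.627). Between the mice 5 of the 11 passed, Mdm4, which is also among the regulators, and the PMP22 family genes Emp1, Emp2, Emp3 and Pmp22, relatives of Perp, all with the higher value in C57B6-No1, where 10.7% of all genes were called so.

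Against primary cells, other p53 targets gave 3 of 40 higher and 2 lower in mHep, where 4.01% of all genes were called higher and 5.97% lower. They gave 7 higher and 1 lower in eHep, where 5.62% of all genes were called higher and 9.41% lower. Phlda3, an inhibitor of AKT, was not well above background on the primary array and was at least 203-fold higher in mHep (measured means 5.55 in mHep and −2.30 in primary cells; limma adjusted p = 0.0049). It was at least 417-fold higher in eHep (measured means 6.59 in eHep and −2.30 in primary cells; limma adjusted p = 0.003). Tnfrsf10b, the TRAIL death receptor, was at least 2.77-fold higher in mHep (limma adjusted p = 0.0381) and at least 4.81-fold higher in eHep (limma adjusted p = 0.0133). Gls2, the liver glutaminase, was lower than in primary cells, with log2 differences of −8.26 ± 1.06 in mHep (limma adjusted p = 0.0064) and −6.69 ± 1.06 in eHep (limma adjusted p = 0.0093). Zmat3, an RNA-binding p53 target, was higher by 2.66 ± 0.60 in mHep (limma adjusted p = 0.0407) and by 3.77 ± 0.60 in eHep (limma adjusted p = 0.0096). The calls in this list thus ran both ways in each medium. In eHep alone the rule also named Plk2, a polo-like kinase, which was 3.98 ± 0.83 higher than in primary cells (limma adjusted p = 0.0231), and Cpt1c, a carnitine palmitoyltransferase relative, which was at least 5.38-fold higher (limma adjusted p = 0.0422). Over 14 settings the call of Tnfrsf10b was lost in 4 in mHep and in 3 in eHep. Those of Zmat3 in mHep and Cpt1c in eHep were each lost in 5, and that of Plk2 in 1. Those of Phlda3 and Gls2 were kept in all 14 in both media.

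Among relatives of the 10 genes, Gadd45g was lower than in primary cells, with log2 differences of −4.69 ± 0.52 in mHep (limma adjusted p = 0.0041) and −4.19 ± 0.52 in eHep (limma adjusted p = 0.005), while Gadd45a was higher in both. Emp3 was at least 26.2-fold higher in mHep (limma adjusted p = 0.0278) and at least 42.4-fold higher in eHep (limma adjusted p = 0.0148). The survival gene Bcl2, not well above background on the primary array, was at least 4.85-fold higher in mHep (limma adjusted p = 0.0476) and at least 4.1-fold higher in eHep (limma adjusted p = 0.0437). Bcl2l11, which encodes the BH3-only protein BIM, was 2.39 ± 0.54 higher in mHep (limma adjusted p = 0.0405). Bik, another BH3-only gene, was lower in eHep than on the primary array (limma adjusted p = 0.0271). It was well above background on 3 of 7 eHep arrays, so that the size of this difference is not given here. Over 14 settings the call of Bcl2l11 was lost in 5, that of Bcl2 in 4 in each medium, and that of Emp3 in 4 in mHep and 1 in eHep. Those of Bik and, in each medium, of Gadd45g were lost in 1. Of the 20 genes repressed through p53, p21 and DREAM none was called in mHep, where 4.01% of all genes were called higher and 5.97% lower. In eHep 3 were called higher, Ccnb1, Cdk1 and Prc1, where 5.62% of all genes were called higher and 9.41% lower. None of the 3 was well above background on the primary array. Over 14 settings the calls of Ccnb1 and Prc1 were each lost in 4 and that of Cdk1 in 3.

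The genes with the most similar pattern over the 15 arrays were ranked by Pearson's r of the log2 level among 14502 genes, as a description of arrays that share mice, media and slides. For Trp53 they were Eif3d (0.973), Lrwd1 (0.972) and Pes1 (0.969). For Mdm2 they were Styk1 (0.961), Zcchc4 (0.922) and Pwp1 (0.918). For Ccng1 they were the near-identical pair Ctla2a (0.979) and Ctla2b (0.978), which such probes may not separate, and Aif1l (0.945). Over the 14 cultured arrays alone r was 0.925, 0.838 and 0.832 for the genes named for Mdm2. It was 0.969 to 0.98 for those of Trp53 and 0.947 to 0.98 for those of Ccng1. Each pattern is that of the brightest probe, and the second probes of Trp53 and Ccng1 differed from it as given above.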

How the data were processed

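Total RNA of 15 samples was read on 1-colour Agilent arrays. The processed signal is an intensity that Feature Extraction 10.7.1.1 or 10.7.3.1 made by subtracting background and detrending, per the file headers. The background flags are other, yes-or-no values per the file headers. The authors' deposited table holds log2 values, scaled in a way not given in the sources used here; it tracked the log2 processed signal with r from 0.972 to 0.9999 and served as an alternative. Spots of a probe were averaged without outlier spots, and each array's 75th percentile was subtracted on the log2 scale. Tests covered genes whose brightest probe was well above background throughout at least 2 of the 3 mice in either medium, or in primary cells. Of the probes, 27668 were named by RefSeq accession, 5589 by symbol, 471 by an older symbol and 7446 only as the scanner named them. Fits used limma 3.58.1 in R 4.3.3, checked on simulated data, with the Benjamini-Hochberg adjustment over all genes: 6 mouse means with the mouse as a block, 7 means with the primary array, or 12 arrays by mouse and medium. Both media came from the same mice, and deviations of the same mouse correlated at 0.397 to 0.563 between media, those of different mice at 0.0114 or less. Precision is limited by the number of arrays. The genes and lists were chosen with earlier results of these data known. Named were the 10 genes, called genes of each list up to 4 per direction, and a fixed set of regulators and relatives; 1 gene that this rule names is not reported here. Alternatives changed background, scaling, filter, probe rule, unit, slide, scan and samples.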

Additional observations from a re-analysis of the deposited data

Results flagged for a closer look

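Single arrays stood apart in 4 cases, and changes differed between mice for 4 genes. Among the 7 eHep arrays, that of 129S1-No2 lay far below the nearest other array for Ccng1 at 3.01, for Bax at 1.60 and for Perp at 3.35, with gaps of 0.571, 0.665 and 0.646 of the range. Among the 7 mHep arrays, replicate 2-1 of C57B6-No1 lay far below the others for Trp53inp1 at 1.01, with a gap of 0.775. About 1 in 20 groups of 7 independent arrays gives such a gap by chance, but these arrays share mice and the eHep array of 129S1-No2 is the only eHep array of that mouse, and 20 groups, 10 genes in each medium, were looked at. The change with medium differed between C57B6-No1 and 129S1-No1 by −1.84 for Mdm2, 1.30 for Ccng1, 1.59 for Bax and −1.12 for Gadd45a in log2, each past the adjusted threshold in the limma fit on 12 arrays.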

How the results depend on the processing

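The number of the 10 genes called between mHep and eHep was 0 over mouse means and remained 0 under each other background correction, scaling, filter and probe rule, within the later scan, without the replicate block, and without any 1 mouse or array. It was 6 with 14 arrays as samples, 4 with slide and 8 with scan added to that fit, and 1 (Mdm2) within the earlier scan. Of all genes, 268 were called, against 176 with normexp, 110 with quantile scaling or the authors' table, 521 with median scaling, 105 on probes detected everywhere, 658 with no filter, 428 with a strict one, 2 with no replicate block, 5024 over 14 arrays, 3006 with slide, 6176 with scan, 1750 in the earlier scan, 654 in the later one, and 526 to 1181 without 1 mouse. In eHep against primary cells 2 of the 10 were called, where 15% of all genes were. The number was 4 with quantile scaling (19.8% of all genes), median scaling (15.7%), detected-probe scaling (16.5%) or the authors' table (19.8%). It was also 4 with no filter (31.1%) and in the earlier scan (36.1%, chosen after seeing the data). It was 3 with normexp (12%), dim readings raised to the background limit (13.8%), a strict filter (19.1%) or the mean of probes (14.1%). In C57B6-No1 alone it was 5 (35.1%). Without 1 mouse the number was 1 to 3 in eHep, where 4.8% to 19.7% of all genes were called. In mHep it was 1 to 2, where 1.84% to 13.4% were. All genes called numbered 2279 in eHep, against 8511 with no filter, 703 without C57B6-No1, 5115 in C57B6-No1 alone and 5486 in the earlier scan, and 1514 in mHep, against 954 with normexp and 8829, 270, 4248 and 4060 in those settings.

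For the difference between C57B6-No1 and 129S1-No1, 4 of the 10 were called, against 0 with normexp, 1 with no filter and 1 with slide as a term, and 1 to 4 without 1 array. Of all genes 2463 were called, against 649 with normexp, 1209 with slide, 5490 in the later scan and 1368 to 4850 without 1 array. Replicate numbers within a mouse did not pair the arrays (r from −0.197 to 0.68 for equal numbers), and with them as a block 4 of the 10 and 4119 genes were called. The causes of these changes were not tested.

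Signs turned for 35 values of the 10 genes and 21 of genes in the lists, all of them short of the threshold in both settings except Mdm4 and Chek2, called between the mice, and Perp and Gadd45b with slide. Perp against primary cells became 0.53, 1.10, 0.39, 0.49 and 1.10 in mHep and 0.44, 0.75, 0.21, 0.22 and 0.75 in eHep with normexp, quantile, median, detected-probe scaling and the authors' table, and in eHep ran from −0.76 to 0.52 without 1 mouse and was 0.76 in C57B6-No1 alone. Perp between media became −0.29 over 14 arrays with or without scan, −1.12 with slide (limma adjusted p = 0.0262), −0.46 in the later scan and −0.63 to 0.70 without 1 mouse. Gadd45a between media became 0.0034 on detected probes, 0.084 in the later scan, and −0.45 to 0.11 without 1 mouse. In the earlier scan Bbc3 became 0.039 and Trp53inp1 −0.064 between media, and Trp53 −0.10 in mHep against primary cells. With the mean of probes Trp53 became −0.14 in mHep against primary cells and Mcl1 −0.25 between media, which was −0.018 with slide. Without 1 mouse, mHep against primary cells ran from −0.058 to 0.69 for Ccng1 and from −0.20 to 0.46 for Bax, both lowest without C57B6-No1.

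In the difference between mice, Sesn2 became −0.15 with quantile scaling and with the authors' table, −0.075 on detected probes, −0.27 in the later scan, and −0.14 to 0.49 without 1 array. Pmaip1 became 0.038 in the later scan and −0.59 to 0.24 without 1 array, Trp53 −0.12 to 0.58 without 1 array (the turned signs of all 3 came without eHep replicate 2-3), Chek2 −0.29 with normexp, and Mdm4 −0.86 with the mean of probes. Gadd45b between media became −0.064 with normexp, −0.49 over 14 arrays with or without scan, −1.89 with slide (limma adjusted p = 0.00732), −0.36 in the earlier scan, −0.47 in the later one, and −0.87 to 0.52 without 1 mouse or array. Bcl2l1 became −0.073 over 14 arrays with or without scan, −0.23 with slide, −0.34 in the later scan and −0.30 to 0.68 without 1 mouse.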
